A study of Mus musculus with 12 samples.

Results

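The amino acid shortage and ATF4 response is represented here by 10 genes: Atf4, Atf3, Ddit3, Trib3, Nupr1, Sesn2, Asns, Psat1, Slc7a11 and Chac1. They were picked by symbol, with their levels over the days of this experiment already known, and every array probe that carries 1 of these symbols was taken. That gave 15 probes for 10 genes, out of 24613 probes and 15967 named genes on the array. Of these, 14 probes and 9 genes passed a detection filter (3 or more of the 12 arrays with a detection p-value below 0.05), against 9657 genes in the whole data set. Slc7a11 did not pass. Atf3 and Ddit3 passed through days 4, 8 and 15 alone, since neither was detected on day 0.

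The samples came from the mouse embryonic stem cell line W9.5 and were taken on days 0, 4, 8 and 15 of a stepwise differentiation toward pancreatic progenitor cells, with 3 Illumina expression arrays per day. The labels list activin A, then retinoid acid, then retinoid acid with fibroblast growth factor, repeat that text for all 12 arrays including day 0, and do not tie an agent to a day. All groups share 1 cell line, and nothing says that the 3 arrays of a day came from separate cultures, so p-values below measure only the spread between these arrays. The comparisons ask how far gene expression had moved on each later day relative to the earlier one.

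Between 45.7% and 51.0% of probes were detected on an array, and the median scanner intensity lay between 71.2 and 86.3. All 7 pluripotent cell markers examined were detected on every array. Their summed linear level ran from 22100 to 26800 on day 0, from 16000 to 17900 on day 4, from 5500 to 5940 on day 8 and from 7840 to 8240 on day 15. Klf4 took another course, with log2 day means of 11.45, 9.20, 11.68 and 11.78 on days 0, 4, 8 and 15, and it weighs on the late sums. Each of the other pluripotent cell markers had lower means on days 8 and 15 than on day 0. The 8 endoderm markers summed to between 2160 and 2370 on day 0, 3280 and 3690 on day 4, 25900 and 27200 on day 8, and 12600 and 15100 on day 15, and 4 of them (Foxa2, Afp, Ttr and Foxa1) were not detected on day 0. The 6 mesoderm and mesenchyme markers summed to between 1750 and 2240 on day 0, 5070 and 5670 on day 4, 4530 and 5370 on day 8, and 11300 and 14400 on day 15, with Hand1 detected on 0 arrays. Neural, trophoblast and pancreas markers summed to at most 1510, 2120 and 1940. Among the 6 pancreas markers on the array, the progenitor factors Ptf1a and Nkx6-1 were detected on 0 arrays and Pdx1 on 1 array of day 8 alone. Clps, an exocrine lipase cofactor, was not detected before day 8 and averaged 9.72 ± 0.10 on day 8 and 9.71 ± 0.33 on day 15, Sst, the hormone somatostatin, was detected on day 15 alone (9.35 ± 0.24), and Ins2 stayed between 6.37 and 6.43 in its day means. These sums moved with the day, and their part in the levels below was not tested. In whole-culture RNA, fewer cells of a type and less RNA per cell cannot be told apart.

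ATF4 is a basic leucine zipper transcription factor whose protein is made when initiation factor eIF2 is phosphorylated, as happens when amino acids run short or unfolded protein builds up in the endoplasmic reticulum. It binds composite C/EBP-ATF elements and switches on genes for amino acid synthesis and uptake, for charging of tRNA, for glutathione turnover and for further stress regulators. Because ATF4 is controlled mainly at translation, the level of its mRNA is not a measure of its protein.

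The promoters show where such elements lie near these genes. RefSeq promoter sequences (build GRCm38.p6, 250 bases before to 50 bases after a transcript start) were found for all 10 genes, in 11 windows. The letters TGATGNAA, the core of the C/EBP-ATF element, were searched on both strands. They occur in the windows of 6 of the 10 genes, and in 3.97% of all 32851 promoter windows. The genes were chosen as known members of this pathway, and a match is a description of the letters only. In Trib3 the match (TTACATCA on the gene's strand) lies from 15 to 22 bases past the start. In the other 5 genes it lies before the start. Their sequences are printed 5′ to 3′ on the gene's strand, with the match in capitals, to let the elements be compared. TTGCATCA is TGATGCAA read on the opposite strand.
Chac1, chr2:119351023-119351082, plus strand: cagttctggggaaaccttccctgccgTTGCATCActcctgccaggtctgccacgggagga
Nupr1, chr7:126625547-126625606, minus strand: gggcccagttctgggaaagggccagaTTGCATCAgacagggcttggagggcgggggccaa
Atf3, chr1:191183410-191183469, minus strand: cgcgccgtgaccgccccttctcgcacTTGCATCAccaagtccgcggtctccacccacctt
Slc7a11, chr3:50443627-50443705, minus strand: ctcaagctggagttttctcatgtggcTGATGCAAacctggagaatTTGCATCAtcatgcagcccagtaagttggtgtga
Asns, chr6:7693210-7693258, minus strand: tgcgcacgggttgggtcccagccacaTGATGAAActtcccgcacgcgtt

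Chac1, Nupr1 and Atf3 hold the identical 8 letters, Slc7a11 holds 2 copies in opposite orientation, and Asns differs at the free position. The match starts 193 bases before the transcript start in Chac1 and 110 bases before it in both Nupr1 and Atf3. In Asns it starts 23 bases before it, and in Slc7a11 the copies start 66 and 47 bases before it. No match was found in the windows of Atf4, Ddit3, Sesn2 or Psat1, which says only that these letters are not in those windows. The letters TGACGTCA, a cyclic AMP response element that can also be bound by ATF factors, were found in 0 of the 10 genes and in 1.79% of all windows.

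Levels below are the authors' log2 intensities, 1 value per array, with arrays in the order of replicates 1, 2 and 3. Where a gene had several probes, the probe with the highest mean stands for it. The detection floor, the lowest level of any detected probe on an array, lay between 6.27 and 6.43 on this scale. Since levels of these days were in view when the genes were chosen, their values and differences are given as a description. Each difference has the standard error (SE) of a limma fit over all genes, and no p-value is printed for these genes.

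In 5 of the 10 genes (Atf4, Trib3, Nupr1, Asns and Chac1) the day means formed a zigzag: higher on day 4 than on day 0, lower on day 8 than on day 4, and highest on day 15. The orders of day means that give this shape were held by 2.16% (day 0 lowest) and 1.26% (day 8 lowest) of all tested genes. In Asns and Chac1 the arrays of days 4 and 15 overlapped, and the second Asns probe was highest on day 4. Chac1 and Nupr1 had the widest swings. Atf3 and Ddit3 climbed through all 4 days, Psat1 peaked on day 4, Sesn2 stayed near the floor and Slc7a11 was not detected.

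**Figure D1:**
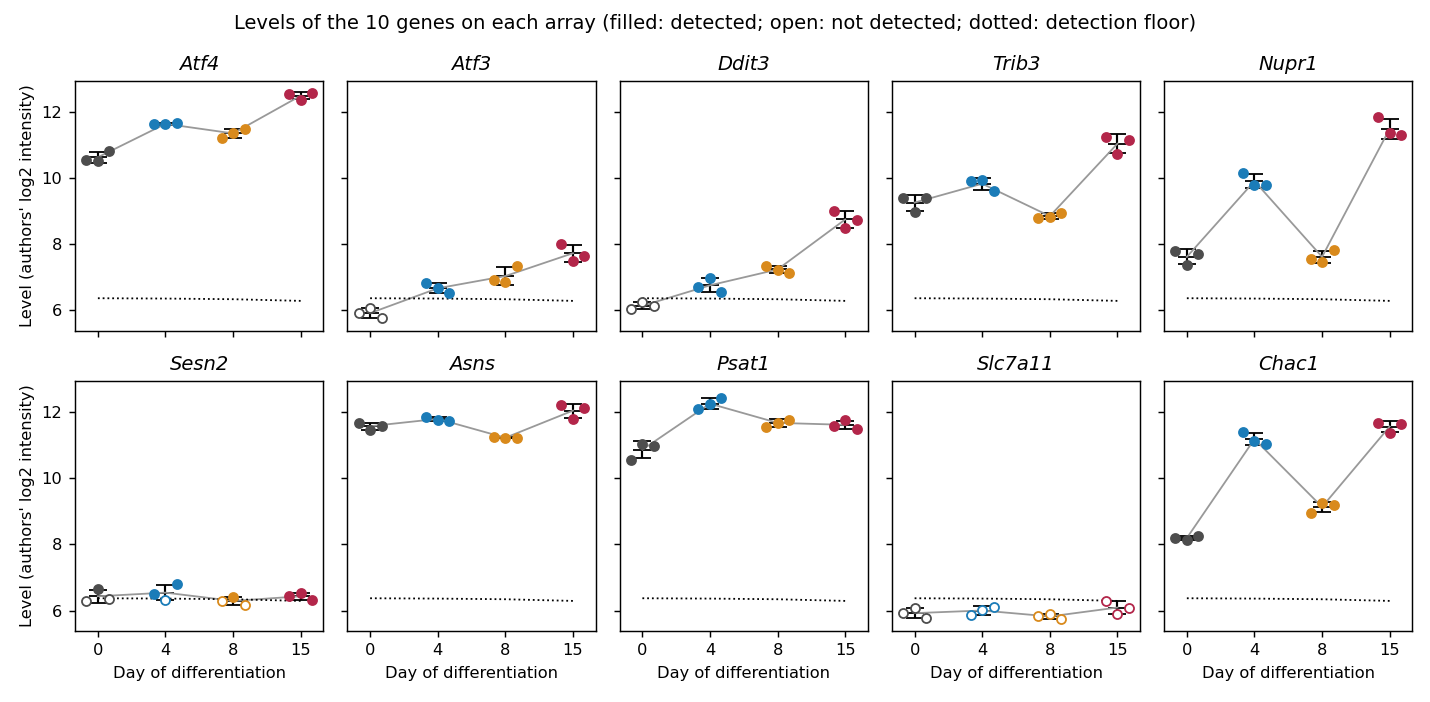
Level of each of the 10 genes (authors' log2 intensity, vertical axis) on days 0, 4, 8 and 15 (horizontal axis, evenly spaced). Each point is 1 array, filled where the probe was detected, with the mean and SD of 3 arrays as bars and the mean detection floor as a dotted line. Chac1 and Nupr1 show high day 4 and day 15 arrays with a dip on day 8, and all 12 Slc7a11 points are open.

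Among the transcription factors, Atf4 was measured at 10.56, 10.52 and 10.82 on day 0, at 11.62, 11.62 and 11.67 on day 4, at 11.21, 11.37 and 11.47 on day 8, and at 12.54, 12.37 and 12.57 on day 15. No 2 days overlapped, and the order from low to high was day 0, day 8, day 4, day 15. The day 4 mean was 1.00 ± 0.11 above the day 0 mean on the log2 scale (SE, n = 3 arrays per day; 2.00-fold). The day 8 mean differed from the day 4 mean by -0.29 ± 0.11, the smallest separated step of this gene. The day 15 mean was 1.14 ± 0.11 above the day 8 mean and 1.86 ± 0.11 above the day 0 mean (3.62-fold).

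Atf3, a stress-induced factor of the same basic leucine zipper family and a known target of ATF4, read 5.91, 6.07 and 5.78 on day 0, where it was not well above background on any array. It read 6.82, 6.68 and 6.52 on day 4, 6.91, 6.87 and 7.35 on day 8, and 8.01, 7.50 and 7.66 on day 15. Each day's arrays lay above those of the day before, with a gap of only 0.05 between day 4 and day 8. Taken against the floor of the day 0 arrays, Atf3 was at least 1.23-fold higher on day 4 and at least 2.56-fold higher on day 15. Its day 15 mean was 0.68 ± 0.15 above its day 8 mean, and its day 8 mean was 0.37 ± 0.15 above its day 4 mean.

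Ddit3 encodes CHOP, a factor induced late in the stress response and linked to cell death. It read 6.03, 6.25 and 6.13 on day 0, again not well above background, then 6.72, 6.99 and 6.57 on day 4, 7.35, 7.23 and 7.14 on day 8, and 9.02, 8.49 and 8.74 on day 15. As with Atf3, each day lay above the day before without overlap, so neither gene shared the dip of day 8. Ddit3 was at least 1.31-fold higher on day 4 than on day 0 and at least 5.20-fold higher on day 15. In the last step the day 15 mean was 1.51 ± 0.14 above the day 8 mean (2.85-fold), against 0.48 ± 0.14 for day 8 over day 4.

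Of the regulators, Nupr1, a small chromatin-associated stress protein, had the widest span of day means among the 10 genes, 3.88 on the log2 scale, against a median span of 0.65 over all tested genes. It read 7.81, 7.36 and 7.70 on day 0, 10.16, 9.80 and 9.78 on day 4, 7.57, 7.47 and 7.82 on day 8, and 11.84, 11.36 and 11.29 on day 15. Days 0 and 8 overlapped, with a mean of 7.62 on each, day 4 stood above them and day 15 above day 4. The day 4 mean was 2.29 ± 0.16 above the day 0 mean (4.89-fold), and the day 8 mean differed from the day 4 mean by -2.30 ± 0.16. The day 15 mean was 3.88 ± 0.16 above the day 8 mean (14.7-fold).

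Trib3, a pseudokinase induced by ATF4 that in turn restrains it, read 9.41, 8.98 and 9.40 on day 0, 9.91, 9.95 and 9.62 on day 4, 8.78, 8.81 and 8.95 on day 8, and 11.25, 10.72 and 11.15 on day 15. Its lowest day was day 8, which lay under day 0 by a gap of 0.03 between the nearest arrays, and day 15 stood apart from the rest. The day 4 mean was 0.56 ± 0.15 above the day 0 mean, the day 8 mean differed from the day 4 mean by -0.98 ± 0.15, and the day 15 mean was 2.19 ± 0.15 above the day 8 mean (4.56-fold). Sesn2, which inhibits mTORC1 and takes part in leucine sensing, did not follow. Detection was limited to 1 array of day 0, 2 arrays of day 4, 1 array of day 8 and the 3 arrays of day 15, with all 12 values between 6.17 and 6.79 and every pair of neighbouring days overlapping. Its day 4 mean differed from its day 0 mean by 0.11 ± 0.13 and its day 15 mean from its day 8 mean by 0.15 ± 0.13. A change of Sesn2 was not detectable at this signal, which lies at the detection floor.

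**Figure D2:**
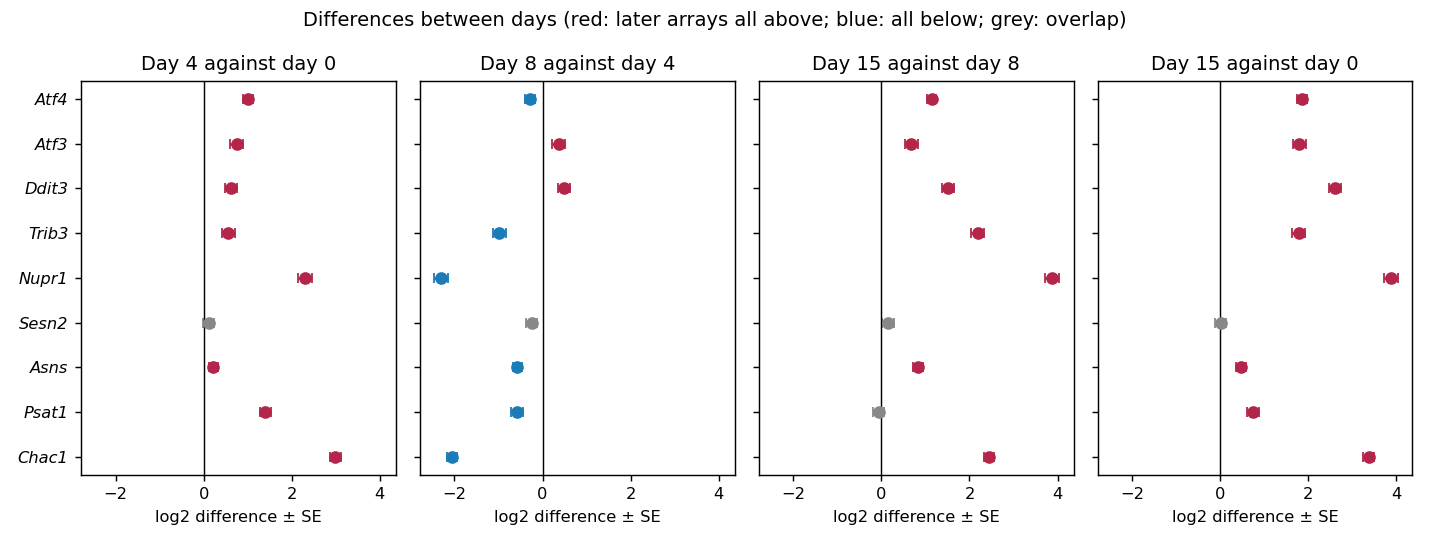
Difference of day means on the log2 scale (horizontal axis, later minus earlier day) for the 9 genes that passed the detection filter, with the SE of the limma fit as bars, in 4 comparisons. Day 8 against day 4 has 6 genes with all later arrays below and 2, Atf3 and Ddit3, with all above. Day 15 against day 8 has 7 genes with all later arrays above.

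The 2 enzymes of amino acid synthesis differed in shape. Asns, asparagine synthetase, read 11.67, 11.46 and 11.57 on day 0, 11.85, 11.77 and 11.74 on day 4, 11.23, 11.22 and 11.20 on day 8, and 12.21, 11.80 and 12.12 on day 15. It had the zigzag at a small scale: day 8 was lowest, and days 4 and 15 overlapped. Its day 4 mean was 0.22 ± 0.11 above its day 0 mean, its day 8 mean differed from its day 4 mean by -0.57 ± 0.11, and its day 15 mean was 0.83 ± 0.11 above its day 8 mean (1.77-fold).

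Psat1, the aminotransferase of the serine synthesis route, read 10.56, 11.04 and 10.97 on day 0, 12.09, 12.25 and 12.41 on day 4, 11.56, 11.67 and 11.77 on day 8, and 11.59, 11.75 and 11.48 on day 15. Day 4 was its highest day and stood apart, and days 8 and 15 overlapped. The day 4 mean was 1.40 ± 0.13 above the day 0 mean (2.63-fold). The day 8 mean differed from the day 4 mean by -0.58 ± 0.13, and the day 15 mean differed from the day 8 mean by -0.06 ± 0.13, so the late increase of Asns, Nupr1 and Trib3 was not seen in Psat1.

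Chac1, an enzyme that breaks down glutathione and is induced through ATF4, read 8.19, 8.14 and 8.24 on day 0, 11.39, 11.13 and 11.03 on day 4, 8.94, 9.25 and 9.19 on day 8, and 11.68, 11.37 and 11.63 on day 15. Days 4 and 15 overlapped at the top, day 8 lay well below them, and day 0 was lowest. The day 4 mean was 2.99 ± 0.12 above the day 0 mean (7.96-fold), the largest difference of the 10 genes in that step. The day 8 mean differed from the day 4 mean by -2.06 ± 0.12, and the day 15 mean was 2.44 ± 0.12 above the day 8 mean (5.41-fold). Day 8 did not return to day 0 in Chac1, with means of 9.13 on day 8 and 8.19 on day 0, whereas it did in Nupr1.

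Slc7a11 encodes the transporter subunit that exchanges cystine for glutamate and so feeds glutathione synthesis. Its single probe was detected on 0 of 12 arrays, with values between 5.73 and 6.28. Its level could therefore not be measured on any day, and no fold is given.

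Counted over the 9 genes that passed the filter, 7 met an adjusted p-value under 0.05 as higher on day 4 than on day 0 (all but Sesn2 and Asns), where 14.3% of all tested genes were called higher. On day 8 against day 4, 6 were called lower, where 26.3% of all tested genes were, and 2 higher (Atf3 and Ddit3), where 28.5% were. On day 15 against day 8, 7 were called higher (all but Sesn2 and Psat1), where 12.5% of all tested genes were. On day 15 against day 0, 8 were called higher, where 31.8% were. Arrays of the 2 days did not overlap for 8 of the 9 genes on day 4 above day 0 (18.9% of all tested genes), for 6 on day 8 below day 4 (30.1%) and 2 above it (31.5%), for 7 on day 15 above day 8 (18.3%) and for 8 on day 15 above day 0 (32.0%). Consecutive comparisons share the arrays of 1 day. Atf3 and Ddit3 are among the genes counted above day 0 by either rule, although neither was detected on day 0. Both passed the filter through the later days alone. The genes were chosen on these same days, so nothing is read from these counts.

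The order of day means separated the genes into a few shapes. Atf4 and Chac1 ran day 0, day 8, day 4, day 15 from low to high, an order held by 2.16% of all tested genes. Trib3 and Asns ran day 8, day 0, day 4, day 15, an order held by 1.26%. Nupr1 also had day 15 highest and day 4 next. Its day 0 and day 8 means were both 7.62 with overlapping arrays, so it is not assigned to either order. Atf3 and Ddit3 ran day 0, day 4, day 8 and day 15, which 11.7% of all tested genes did. Day 15 was the highest day for 7 of the 9 genes, and for 25.6% of all tested genes. Day 4 was the highest for the other 2, Psat1 and Sesn2, and for 17.4% of all tested genes.

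Probes of 1 gene were compared for the 4 genes with several probes. The second Atf4 probe had the same order of days, with day 4 above day 0 by 0.96 ± 0.14 and day 15 above day 8 by 0.83 ± 0.14. The second Asns probe moved further between days 4 and 8, with a difference of -1.08 ± 0.13, but its day 15 and day 0 arrays overlapped, and its highest day mean was that of day 4 (9.27, against 9.15 on day 15). The second Psat1 probe again had day 4 above day 0 by 1.44 ± 0.16 and no separation of day 15 from day 8. For Atf4 and Psat1 the probes thus shared 1 course.

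Trib3 was less uniform. Its other 2 probes lay close to the floor, and neither separated day 4 from day 0, with differences of 0.13 ± 0.13 and -0.04 ± 0.12. Neither was detected on day 8. Against day 8, the day 15 level was at least 1.78-fold higher for 1 of them and at least 1.77-fold higher for the other. The day 4 level was at least 1.28-fold higher than day 8 for the first of them. For the other it was at least 1.05-fold higher, with 2 of 3 day 4 arrays detected. The high day 15 was thus found with all 3 Trib3 probes, and the higher day 4 with 1 of 3. The dip of day 8 had the same direction in all 3, but its size was measured with 1 alone.

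**Figure D3:**
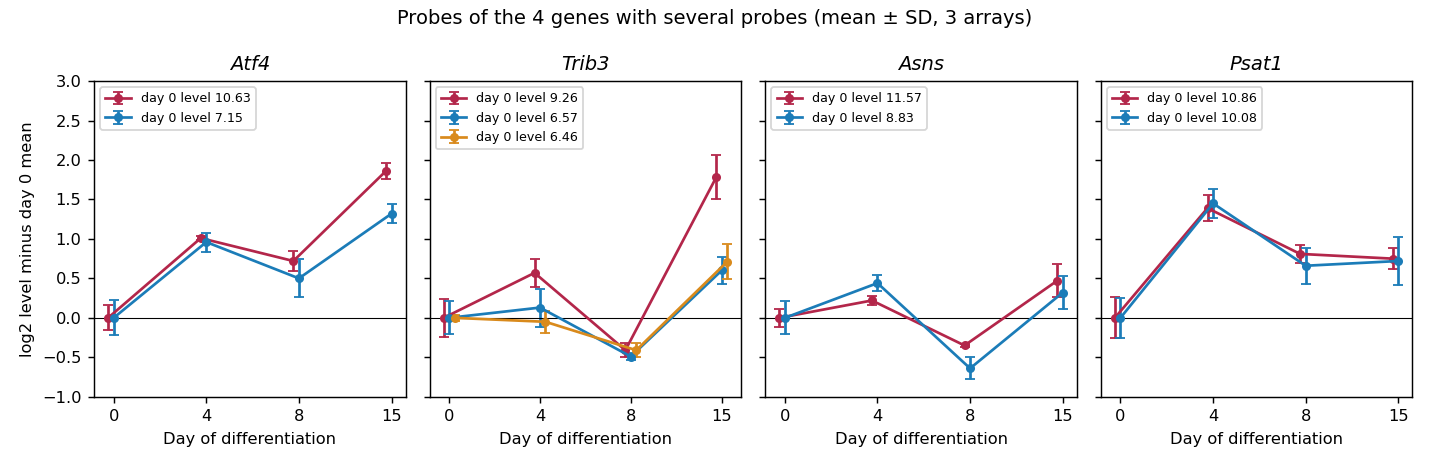
Mean log2 level of each probe minus its own day 0 mean (vertical axis) on days 0, 4, 8 and 15 (horizontal axis, evenly spaced) for the 4 genes with several probes, with the SD of 3 arrays as bars. Legends give each probe's day 0 mean. The other 2 Trib3 probes stay near 0 on day 4 and lie below 0 on day 8, as the probe that stands for the gene does.

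The authors' values still hold the background of the scanner, which shrinks differences near the floor. After background correction and quantile normalization of the scanner intensities with neqc, all differences that were larger than the spread between arrays kept their sign. Nupr1 was then 24.2-fold higher on day 15 than on day 8, against 14.7-fold in the authors' values. Ddit3 was at least 10.4-fold higher on day 15 than on day 0, against at least 5.20-fold, and Atf3 at least 4.19-fold, against at least 2.56-fold. Chac1 was 15.3-fold higher on day 15 than on day 0, against 10.4-fold. Asns, far above the floor, hardly changed, at 1.79-fold for day 15 over day 8, against 1.77-fold.

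**Figure D4:**
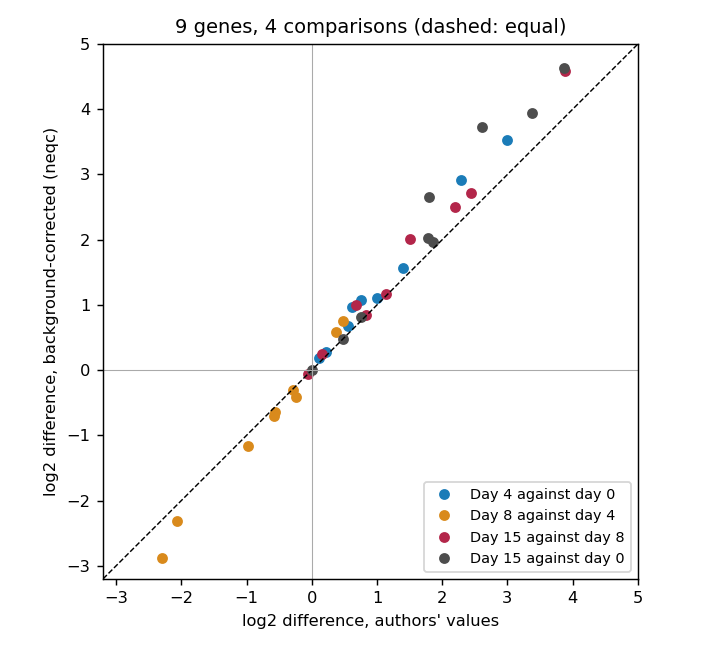
Log2 difference after background correction with neqc (vertical axis) against the log2 difference in the authors' values (horizontal axis) for 9 genes in 4 comparisons, 1 point for each. Points above the dashed line at right and below it at left are larger after correction, as for Nupr1 on day 15 against day 8 (4.59 against 3.88).

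Genes with the most similar course were ranked by the root mean square (RMS) difference of log2 values over the 12 arrays, each gene centred on its own mean. The closest gene to Chac1 outside the 10 was Slc6a9, a glycine transporter and ATF4 target (RMS 0.47), followed by Dcn, a matrix proteoglycan (0.57). Dcn is also 1 of the 6 mesoderm and mesenchyme markers, with day means of 7.38, 9.67, 8.96 and 10.20 on days 0, 4, 8 and 15. Acta2 (10.46, 11.98, 11.62 and 13.13) had the same order of days as Dcn, Chac1 and Atf4. Col3a1 (7.09, 8.41, 8.38 and 10.65) was likewise lowest on day 0 and highest on day 15. Its days 4 and 8 were about equal, with SDs of 0.07 and 0.13. Of the other markers in that list, Col1a1 was higher on each later day, Tnnc1 was highest on day 8 and Hand1 was at background on every day. The part of such cells in the levels of Chac1 and Atf4 was not tested. Slc6a9 was also the closest outside gene to Nupr1 (0.75), followed by Tff1 (0.77), a trefoil peptide of the stomach, and Chac1 and Nupr1 lay 0.59 apart. The day 0 mean of Slc6a9 was 6.98 ± 0.26, its day 4 mean 8.94 ± 0.22, its day 8 mean 7.90 ± 0.15 and its day 15 mean 9.72 ± 0.30 (SD, n = 3). The closest to Psat1 were Sall2, a zinc finger factor, at 0.15 and Phgdh, the enzyme that starts the serine route, at 0.16, and Phgdh likewise had its highest mean on day 4 (8.72 ± 0.04, against 7.34 ± 0.16 on day 0).

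For the remaining genes the closest were not of this pathway's lists. They were Fstl1 and Tox3 for Atf4 (0.17 and 0.18), Ginm1 and Rabac1 for Atf3 (0.17 and 0.18), Fv1 and H1f2 for Ddit3 (0.17 and 0.22), Tgfbi and Kif5c for Trib3 (0.28 and 0.31), Stk40 and Selplg for Asns (0.14 and 0.15), and Atp13a1 and Eef2 for Sesn2 (0.08 and 0.09). Apart from Chac1 and Nupr1, the nearest other chosen gene ranked far down among all tested genes. Its rank was 43 for Atf4, 53 for Trib3 and 105 for both Atf3 and Ddit3. It was 891 for Asns, 1051 for Psat1 and 4393 for Sesn2. The RMS grows with the span of a gene and is not compared between genes. The span of Sesn2, 0.25, exceeded that of only 13.4% of tested genes.

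Other ATF4 targets, none of them among the 10, were counted from 4 lists: amino acid synthesis, amino acid transport, tRNA synthetases and export, and further targets in signalling and transcription. Of 52 listed genes 41 were on the array and 38 passed the detection filter. Of these 38, Fgf21, a secreted hormone, passed through day 15 alone and was detected on no array of days 0, 4 or 8, yet it is counted as a rise on day 4 and a fall on day 8. Leaving it out gives 22 rises on day 4 and 23 falls on day 8. Fgf21 is also among the rises on day 15, with bounds of at least 1.32-fold against day 8 and 1.29-fold against day 0. Without it these rises number 23 and 20. On day 4 against day 0, 23 of the 38 rose and 2 fell, with a median log2 difference of 0.64, where 14.3% of all tested genes rose and 13.6% fell and the median of all was -0.04. On day 8 against day 4, 24 fell and 5 rose (median -0.56, against -0.01 for all tested genes), where 26.3% of all tested genes fell and 28.5% rose. On day 15 against day 8, 24 rose and 1 fell (median 0.52, against -0.03 for all), where 12.5% of all tested genes rose and 9.31% fell. The majority calls ran upward, downward and upward over these steps, but the lists were drawn up with earlier results of these arrays known and are no independent evidence of it. Day 4 was the highest day for 17 of the 38 and day 15 for 13. The order of days of Atf4 and Chac1 was held by 6, and that of Trib3 and Asns by 1. The 6 include Fgf21, whose means on days 0, 4 and 8 were all at background. On day 15 against day 0, 21 rose and 7 fell (median 0.48, against -0.08 for all), where 31.8% of all tested genes rose and 35.6% fell. The lists differed in this comparison. In amino acid synthesis 4 rose and 4 fell (median -0.02), and in amino acid transport 3 rose and 3 fell (median -0.12). Of the tRNA synthetases 6 rose and 0 fell (median 0.48), and of the further targets 8 rose, Fgf21 among them, and 0 fell (median 1.16).

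**Figure D5:**
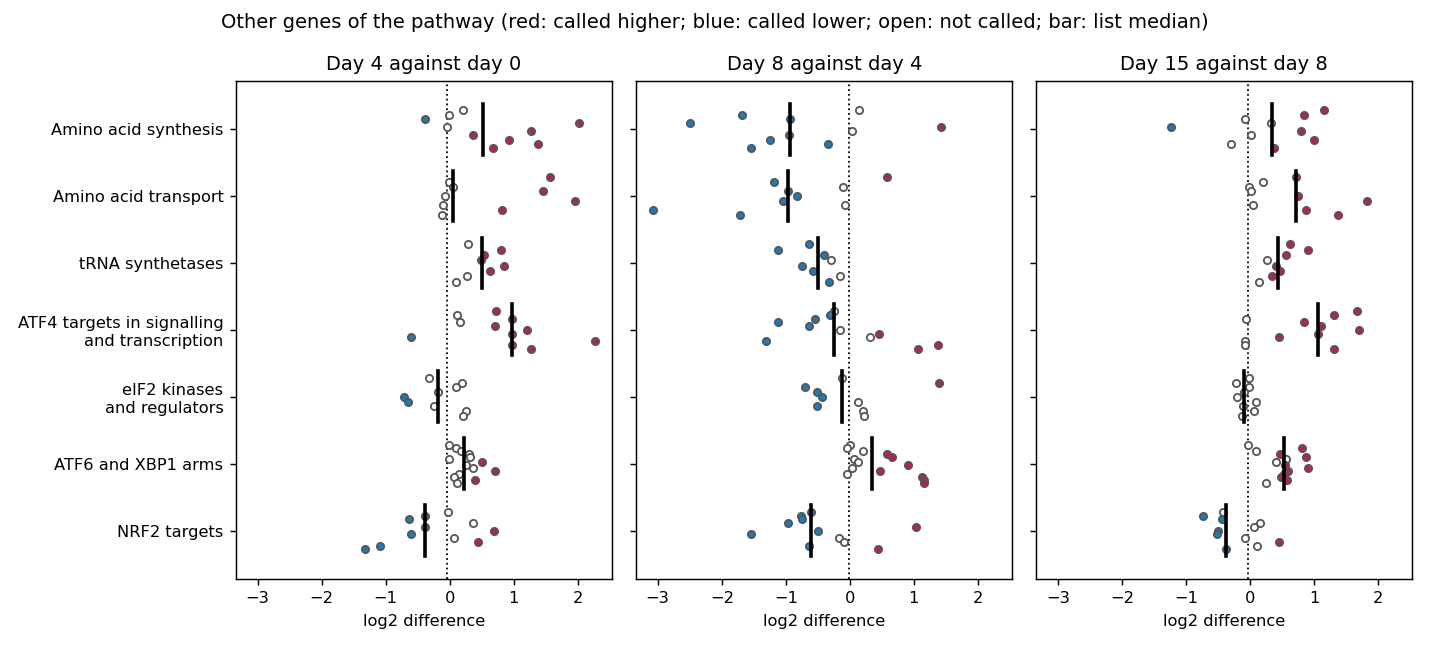
Log2 difference (horizontal axis, later minus earlier day) of each tested gene of 7 lists, none of them among the 10 genes, in 3 comparisons. Red points were called higher, blue points lower and open points were not called (limma, adjusted p-value under 0.05). Black bars are list medians and the dotted line is the median of all tested genes; the first 4 lists have their medians right of that line on day 4 against day 0 and day 15 against day 8 and left of it on day 8 against day 4.

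By role, 6 of 10 amino acid synthesis genes rose and 1 fell on day 4 against day 0. On day 8 against day 4, 7 fell and 1 rose, and on day 15 against day 8, 5 rose and 1 fell. The 7 falls include Cbs, which was detected on no array of day 8, with a bound of at least 1.42-fold. Cth, which makes cysteine from cystathionine, rose by 2.02 ± 0.18 to 8.75 ± 0.28 on day 4, against 6.74 ± 0.36 on day 0 (adjusted p = 1.4e-07; detected on 2 of 3 day 0 arrays), and fell by 2.49 ± 0.18 on day 8 (detected on 1 of 3 arrays). On day 15 it averaged 6.59 ± 0.16. Aldh1l2, a mitochondrial folate enzyme, rose 2.23-fold on day 15 against day 8 (adjusted p = 6.4e-07). Glul, glutamine synthetase, went against the list in both later steps: it rose 2.67-fold on day 8 against day 4 and fell by 1.24 ± 0.17 on day 15 against day 8. On day 15 against day 0, Gpt2, an alanine transaminase, rose 4.28-fold, while Cbs, which forms cystathionine, fell at least 1.95-fold and had no array of day 15 above background.

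Of 9 amino acid transport genes, 4 rose and 0 fell on day 4 against day 0, 6 fell and 1 rose on day 8 against day 4, and 5 rose and 0 fell on day 15 against day 8. Slc6a9 rose 3.88-fold in the first of these steps (adjusted p = 6.2e-08) and 3.52-fold in the last (adjusted p = 1.6e-07). Slc7a3, a cationic amino acid transporter, fell by 3.07 ± 0.11 to 9.63 ± 0.20 on day 8, against 12.70 ± 0.05 on day 4 (8.40-fold, adjusted p = 3.7e-13). Slc1a4, a neutral amino acid transporter, rose on day 8 against day 4 (by 0.58 ± 0.11) and was 7.29-fold higher on day 15 than on day 0. Slc7a3 was 2.61-fold lower on day 15 than on day 0. Of the tRNA synthetases, 5 of 8 rose on day 4 against day 0 and 6 fell on day 8 against day 4. On day 15 against day 8, 6 rose, and none was called the other way in these steps. The falls include Yars, which was detected on no array of day 8, with a bound of at least 1.11-fold. Nars, for asparagine, rose 1.79-fold in the first step, and Cars, for cysteine, fell 2.18-fold on day 8 and rose 1.87-fold on day 15. For 7 of these 8 genes days 4 and 15 held the highest 2 means, as they did for 1 of 10 synthesis genes, 2 of 9 transport genes, 4 of 11 signalling and transcription genes, 6 of the 9 chosen genes and 5.94% of all tested genes. The 6 include Sesn2, which lay at the detection floor and whose day 15 mean differed from its day 0 mean by 0.01 ± 0.13. The 4 of 11 include Fgf21, which was detected on day 15 alone.

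Of the 11 further targets in signalling and transcription, 8 rose and 1 fell on day 4 against day 0, 5 fell and 3 rose on day 8 against day 4, and 8 rose and 0 fell on day 15 against day 8. Without Fgf21 the counts were 7 and 1 on day 4, 4 and 3 on day 8, and 7 and 0 on day 15. Stc2, a secreted glycoprotein, rose 4.82-fold on day 4 (adjusted p = 1.0e-09) and fell 2.49-fold on day 8. Ppp1r15a, which guides a phosphatase to eIF2 and so closes the response, fell 1.52-fold on day 4 against day 0. Vegfa, an angiogenic growth factor, rose 2.58-fold on day 8 against day 4. Herpud1, an endoplasmic reticulum protein of the degradation pathway, rose 3.28-fold on day 15 against day 8 (adjusted p = 1.5e-07). Vldlr, a lipoprotein receptor, was at 9.94 ± 0.10 on day 15 and 6.32 ± 0.11 on day 0, where it was detected on 1 of 3 arrays.

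In these 4 lists each count of 0 from limma was also 0 at an unadjusted p-value under 0.05 and after neqc. Of 14 genes of the ATF6 and XBP1 arms of the unfolded protein response, 3 rose on day 4 against day 0, 7 rose on day 8 against day 4, 9 rose on day 15 against day 8 and 13 rose on day 15 against day 0, with 0 lower in any step, by limma, at an unadjusted p-value under 0.05 or after neqc. The shares of all tested genes that rose were 14.3%, 28.5%, 12.5% and 31.8% in these steps. The 13 include Edem1, whose day 0 arrays were all at background, with a bound of at least 1.03-fold for day 15. The list's median was 1.33 on day 15 against day 0, and Syvn1, a ubiquitin ligase of the endoplasmic reticulum, rose 4.39-fold. No gene of this list was called lower on day 8 than on day 4, where 26.3% of all tested genes were. Atf3 and Ddit3 were not called lower either, and a link between them and this list was not tested. Of 14 listed eIF2 kinases and regulators, 9 passed the detection filter. The kinases Eif2ak3 and Eif2ak4 and the eIF2 subunit gene Eif2s1 were not among these 9, so nothing is said of them. On day 4 against day 0, 0 of the 9 rose and 2 fell, where 14.3% of all tested genes rose and 13.6% fell. On day 15 against day 8, 0 were called either way, where 12.5% rose and 9.31% fell. At an unadjusted p-value under 0.05, 2 were higher and 4 lower in the first of these steps and still 0 in the second; neqc called the same numbers as limma on the authors' values. On day 8 against day 4, 1 of the 9 rose and 4 fell, where 28.5% of all tested genes rose and 26.3% fell. On day 15 against day 0, 3 rose and 6 fell, where 31.8% rose and 35.6% fell. Eif2ak2, the double-stranded RNA kinase, rose 2.62-fold on day 8 against day 4.

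Genes of the NRF2 list, which include targets in glutathione synthesis and redox defence, fell more often than they rose. The list also holds Nfe2l2, the gene of NRF2 itself, and Keap1, its inhibitor. Nfe2l2 is counted as a rise on day 4 and a fall on days 8 and 15, and Keap1 as a fall on day 4 and a rise on day 8. Of 11, 2 rose and 6 fell on day 4 against day 0, 2 rose and 7 fell on day 8 against day 4, and 1 rose and 5 fell on day 15 against day 8. Of all tested genes, 14.3% rose and 13.6% fell in the first step, 28.5% and 26.3% in the second, and 12.5% and 9.31% in the third. Txnrd1, a thioredoxin reductase, fell 2.52-fold on day 4 (adjusted p = 1.8e-07), Nqo1, a quinone reductase, fell 2.94-fold on day 8 against day 4, and Gclm, a subunit of the enzyme that starts glutathione synthesis, fell 1.66-fold on day 15 against day 8. Chac1, which degrades glutathione, was higher on days 4 and 15 than on the sampled day before, while the NRF2 list had a median of -0.38 on day 4 against day 0 and -0.37 on day 15 against day 8. On day 8 against day 4 both were lower, Chac1 with a difference of -2.06 ± 0.12 and the NRF2 list with a median of -0.6.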

How the data were processed

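RNA of 12 samples was measured on Illumina expression arrays. The deposited scanner table holds an intensity per probe, neither background-subtracted nor normalized judging by its values, and a detection p-value, per the file headers. The authors' value table holds log2 intensities in the same rank order as the scanner's on each array (rank correlation 1), and their normalization was not stated in the labels or headers. Genes were named from the platform annotation (20984 probes with 1 gene, 1 with several, 3628 with none), and all 10 members have the same symbol in RefSeq's table.

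Levels and differences came from the authors' log2 table, as the rule for these genes asks. Probes were filtered on detection (13421 kept), and 9657 genes were fitted on all 12 arrays with limma 3.58.1 in R 4.3.3, with 1 mean per day, 8 residual degrees of freedom and a variance trend. Calls used a threshold of 0.05 after Benjamini-Hochberg adjustment over these genes. A lower bound sets the brighter day's mean against each dim array's floor or own value, whichever is higher. The fit was tested on simulated data with independent noise on each array. Deviations shared by same-numbered replicates, described below, were not part of it, so it does not speak to them. The number of arrays limits precision.

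The members, lists and naming rules were chosen with earlier results of these data known. Of each list, the called gene with the largest difference in each direction could be named per comparison, and for each member the 2 nearest genes. Same-numbered replicates deviated together in day 15 against day 8 and against day 0 (correlations of 0.36 to 0.54), but not in every pair of the other comparisons (lowest -0.09). Alternatives were neqc (offset 16 or 50), median scaling, other filters, the mean of probes, no variance trend, the replicate block, the 2 days' arrays alone, and each array left out. No pair of arrays held identical values.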

Additional observations from a re-analysis of the deposited data

How the results depend on the processing

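Counts of changed genes, over all tested genes and over the other ATF4 targets, stayed within 1.5 times the reported values under every alternative run. Over the settings with all arrays, 23 to 27 other ATF4 targets changed on day 4 against day 0, 27 to 32 on day 8 against day 4, 20 to 25 on day 15 against day 8 and 27 to 30 on day 15 against day 0. With each array left out in turn, the ranges were 22 to 25, 26 to 30, 20 to 25 and 26 to 29. With the replicate number as a block the counts were 27, 32, 25 and 30, and this pairing changed no call of a named gene. Of 752 alternative values of the members' differences, 0 reversed and 45 moved by more than the spread between arrays, 38 of them under another normalization or background correction and 7 with the mean of probes. With median scaling, the difference of Asns on day 4 against day 0 was 0.05, against 0.22. With the mean of its probes, that of Trib3 was 0.22, against 0.56. Of 41 named differences of other genes, 38 kept their call under every alternative. Cbs on day 4 against day 0 was not called without day 0 replicate 2 (adjusted p = 0.13), without day 4 replicate 1 (0.06) or 2 (0.085), or with the mean of probes (0.23). With median scaling Gars on day 15 against day 0 (adjusted p = 0.052) and Sqstm1 on day 15 against day 8 (0.17) were not called, nor was Sqstm1 without day 15 replicate 2 (0.06). The slide block was not run, since the files name no slides. Signal at the detection floor limits Sesn2, Slc7a11 and the day 0 levels of Atf3 and Ddit3.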
